A study of Mus musculus with 58 samples.

Results

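Within a library of 16461 inserts of 175 nt placed behind single promoters in mouse embryonic stem cells, 129 inserts yielded mostly unspliced RNA in nuclear run-on and mostly spliced RNA at steady state, and these late-spliced inserts are described here. They were chosen from reads on spliced and unspliced references. Of 2404 inserts with a spliced reference, 1995 had at least 20 reads in each of the 4 total RNA and 2 run-on RNA libraries of the Pou5f1 site. Of these, 716 had a mean spliced share (spliced reads over all reads of the insert) of at least 70% in total RNA. The 129 inserts were those whose mean share in run-on RNA was at most 30%. They make up 6.47% of the inserts with enough reads. Of the rest of the 716, 354 had a run-on share between 30% and 70% and are called intermediate here, and 233 had a run-on share of at least 70% and are called nascent-spliced.

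All cells were F121-9, a hybrid line carrying a 129 and a CAST allele of each locus. At the Pou5f1 site, inserts were integrated on the 129 allele at position +157 of the antisense transcript that starts upstream of Pou5f1, ahead of a reporter gene for the red fluorescent protein mKate2 (at +172), in cells that also carried TagBFP2 fused to the end of Oct4, the protein of Pou5f1. Pou5f1 lies on chromosome 17 from 35506032 to 35510777 (GRCm38.p6, protein-coding). At the second site, inserts were integrated at +102 of 4930461G14Rik, a long non-coding RNA gene here called 14Rik, on the CAST allele of wild-type F121-9 cells without the reporter. 14Rik lies on chromosome 9 from 58455173 to 58469623 in the same build. At Pou5f1, untreated cells gave run-on RNA (15 minutes of nuclear run-on with biotinylated nucleotides, 2 libraries), chromatin-associated RNA (2 libraries, numbered 2 and 3) and total RNA (4 libraries). Cells with the Pou5f1 library were also harvested 48 h after 40 nM of an siRNA pool against EXOSC3 (RRP40), called siRRP40, or after a non-targeting siRNA, called siNT (3 cultures each). At 14Rik, total RNA was read in 3 screens of untreated cells. Genomic DNA (gDNA) from the same cells was read beside the RNA, and reporter cells were sorted into 6 bins in 2 screens. Each library came from a pool of cells that carried the whole insert library, so all inserts of a condition were read together.

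Introns are removed by the spliceosome, which joins a donor site to an acceptor site downstream, often while RNA polymerase II is still transcribing. RNA recovered after a run-on has just been extended by polymerase, chromatin-associated RNA includes transcripts that are still tethered or not yet released, and total RNA is dominated by finished transcripts. A share that differs among these fractions depends on when splicing takes place and on how long each form persists. RRP40 is a subunit of the nuclear exosome, a complex that degrades RNA from its 3' end, including short-lived upstream antisense RNA.

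RNA libraries held 2665226 to 94099800 reads on references, gDNA libraries 1991728 to 48334996 and sorted bins 507182 to 7437828. Inserts are named in the files by number only, and no sequence or gene is paired with those numbers in the sources used here, so whether late-spliced inserts overlap or share a source gene was not tested. At Pou5f1 the reverse transcription primer lay 221 nt downstream of the insert, so a run-on transcript was read only if polymerase had passed that point. A late-spliced insert had a median of 1810 and 2116 reads in the run-on libraries, 528 and 602 in the chromatin libraries, and 216 to 3986 in the total RNA libraries. The 95% Wilson interval of a share had a median half-width of 1.70 percentage points over the total and run-on libraries and a widest one of 17.2 points. It covers counting error only, since reads are not independent molecules. All counts are even, as counting both mates of a read pair would give. The intervals, and the upper bounds given below for counts of 0, take every read as a separate count and would then be too narrow.

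The spliced share was higher with each step from run-on to chromatin to total RNA, and the values in run-on and total RNA are those that chose the inserts. The median share of the 129 inserts was 15.5% and 12.1% in the run-on libraries, 41.4% and 30.4% in the chromatin libraries, and 92.3%, 82.8%, 93.7% and 90.1% in total RNA libraries 1 to 4. No run-on median came near a total RNA median, and the chromatin medians lay between them. In 126 of 129 inserts the lowest of the 4 total RNA shares was above the higher run-on share. Limits on the means of these same libraries favour such gaps. Only 1 insert had no spliced read in 1 run-on library and none lacked spliced reads in both. Whether finished RNA carried over into the run-on fraction was not tested. The mean run-on share was under 1% in 4 inserts, 1% to 10% in 31 and 10% to 30% in 94. In total RNA it was at least 90% in 47 inserts.

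Single inserts varied between replicates. The range over the 4 total RNA libraries exceeded 30 points in 37 inserts, 59 inserts fell under 70% in at least 1 total RNA library, and 43 exceeded 30% in 1 of the run-on libraries. Across the 129 inserts the pair of run-on libraries did not rank them alike (Pearson r = 0.007), whereas over the 1995 inserts with enough reads the same libraries gave r = 0.79. The rule on the mean run-on share narrows the range of the first value. The chromatin libraries, which the rule did not use, correlated with r = 0.45 over 116 late-spliced inserts and with r = 0.77 over 1869 inserts.

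The limits were crossed by small margins in some inserts. Just inside the limit on total RNA was sequence_12340, with a mean of 70.2% (82.3%, 59.8%, 62.5% and 76.3% in libraries 1 to 4). Just outside was sequence_13251, with 69.97%. For run-on RNA the nearest inserts were sequence_12526, inside with 29.9% (38.3% and 21.5%), and sequence_08472, outside with 30.04%. At the limit on reads they were sequence_06113, inside with 22 reads in its shallowest library, and sequence_09585, outside with 18. These neighbours differ from each other by far less than their own replicates do.

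The 6 inserts with the most reads in the libraries of the rule show the course in single inserts, and each lacked 1 segment of 77 to 138 nt in its spliced reference. The deepest, sequence_12255 (segment of 138 nt), had spliced shares of 37.9% and 17.05% in run-on RNA, 19.7% and 19.4% in chromatin RNA, and 90.4%, 70.4%, 84.2% and 95.3% in total RNA. Its chromatin shares fell within its run-on range, far below total RNA. In sequence_12277 (77 nt) the shares were 26.6% and 21.3% in run-on RNA, 45.0% and 38.5% in chromatin RNA, and 93.0%, 84.7%, 91.5% and 90.1% in total RNA, so the fractions did not overlap. For sequence_03316 (89 nt) they were 27.3% and 23.5% in run-on RNA, 35.5% and 15.3% in chromatin RNA, and 78.7%, 63.6%, 71.5% and 86.0% in total RNA. Here chromatin and run-on RNA overlapped. In sequence_08526 (78 nt) run-on RNA gave 21.6% and 30.8%, chromatin RNA 30.2% and 15.8%, and total RNA 93.7%, 87.6%, 88.9% and 94.6%, again with chromatin and run-on RNA overlapping. For sequence_12492 (124 nt) run-on RNA gave 24.3% and 23.1%, chromatin RNA 53.5% and 58.7%, and total RNA 93.6%, 84.7%, 93.5% and 94.0%. Its chromatin shares stood about midway. Last, sequence_12085 (79 nt) had 27.5% and 30.9% in run-on RNA, 42.8% and 42.7% in chromatin RNA, and 94.2%, 75.3%, 73.5% and 86.3% in total RNA, with no overlap between fractions. Intervals of these shares were narrow, with a half-width of at most 2.46 points.

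Chromatin-associated RNA, which the rule did not use, lay between nascent and steady-state RNA for most late-spliced inserts. With enough reads in both chromatin libraries, 116 of the 129 could be placed. Their mean chromatin share was above the mean run-on share in 98 and below the mean total RNA share in 110, and between both in 92. The rule holds run-on and total RNA far apart, which favours a value between them. In intermediate inserts 174 of 335 lay between both, and in nascent-spliced inserts 36 of 213. Both chromatin libraries were above both run-on libraries in 66 of the 116 late-spliced inserts. It was so in 76 of 335 intermediate and 19 of 213 nascent-spliced inserts, classes that run-on values define. All 4 total RNA libraries were above both chromatin libraries in 88 of the 116 late-spliced inserts. Intermediate inserts came close with 240 of 335, and nascent-spliced inserts had 126 of 213. The mean chromatin share of late-spliced inserts was at most 30% in 49, between 30% and 70% in 51 and at least 70% in 16. The median difference of chromatin minus run-on RNA was 20.5 points in late-spliced inserts, against 3.53 points in intermediate and -11.6 points in nascent-spliced inserts, as a description, since run-on values define these classes. In nascent-spliced inserts the median share was 82.2% and 92.3% in run-on RNA, 70.0% and 70.9% in chromatin RNA and 96.5% to 99.9% in total RNA, so their chromatin medians lay below both other fractions.

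The difference between steady-state and chromatin RNA was tested in libraries outside the rule, siNT total RNA against chromatin RNA of untreated cells. In siNT cultures A to C the median share of late-spliced inserts was 92.7%, 93.1% and 94.7%, against 41.4% and 30.4% in chromatin RNA, and the groups did not overlap. The mean siNT share was at least 70% in 105 of 116 inserts with enough reads and at least 90% in 75. Of 107 inserts tested, 63 had a higher and 4 a lower spliced share in siNT than in chromatin RNA (edgeR quasi-likelihood test, adjusted p under 0.05). Among all 1918 inserts tested, 44% were called higher and 1.15% lower. The median difference was 50.4 points in late-spliced inserts, 39.0 in intermediate and 26.5 in nascent-spliced inserts. In log2 odds of splicing the order was reversed, with medians of 4.48, 5.00 and 5.77, and 58.9%, 67.1% and 56.9% were called higher. These gaps between classes were not tested. Spliced columns scaled apart by TMM, which by construction takes out a shift common to all inserts, gave 3 calls, 2 higher and 1 lower. Without siNT culture A, B or C there were 30, 35 and 36. The siNT cells were transfected and the chromatin cells were not, so fraction and transfection cannot be told apart.

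All 6 of the deepest inserts were called higher in siNT. In sequence_12255 the siNT shares were 93.0%, 93.9% and 94.0%, against 19.7% and 19.4% in chromatin RNA, a difference of 5.92 ± 0.28 (SE) in log2 odds of splicing (adjusted p = 0.0014, edgeR). The largest changes were in shallower inserts. In sequence_10952 the share was 99.9%, 99.6% and 99.7% in siNT, against 1.33% of 602 reads and 0 of 182 reads in chromatin RNA, where a count of 0 allows up to 1.65% (log2 odds 15.4 ± 2.1, adjusted p = 0.0058, edgeR). For sequence_13901 it was 96.2%, 99.1% and 98.5% in siNT, against 0 of 142 reads (up to 2.11%) and 1.50% in chromatin RNA (12.5 ± 2.0, adjusted p = 0.0080, edgeR). Both inserts were spliced in nearly every siNT read and in almost no chromatin read.

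A few late-spliced inserts were mostly unspliced in siNT cells, against their share in untreated total RNA. The mean siNT share was under 30% in 4 of 116 inserts, sequence_05417, sequence_12441, sequence_12723 and sequence_13769, singled out after their values were seen. In sequence_12723 the siNT shares were 0.45%, 5.37% and 0.83% of 36754, 24948 and 23642 reads, against 69.6% and 100% in chromatin RNA, and untreated total RNA gave 98.2% to 100%. It was called lower in siNT (log2 odds -9.46 ± 2.31, adjusted p = 0.024, edgeR). The siRRP40 cultures gave 5.67%, 0.23% and 0.11%, close to siNT and far from the untreated screens. In sequence_13769 the siNT shares were 4.20%, 7.79% and 3.91%, against 87.6% and 47.5% in chromatin RNA (-5.45 ± 1.68, adjusted p = 0.045, edgeR). This call was lost without siNT culture A, B or C (adjusted p = 0.13, 0.10 and 0.13) and without chromatin library 2 (0.067), and that of sequence_12723 without siNT culture A or C (0.088 each, edgeR). For sequence_13769, untreated total RNA shares of 70.8% to 95.3% were again far above siNT. Its shares and test sum 2 spliced forms, which differed between the groups. Spliced chromatin reads were all of the form lacking 114 nt (mean share 67.6%), and spliced siNT reads all of the form lacking 90 nt (5.30%). Untreated total RNA held both, at 45.0% ± 40.9 and 42.2% ± 47.6 (SD, n = 4).

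The segment missing from the spliced reference was shorter in late-spliced inserts than in the other classes that were mostly spliced in total RNA, and close to that of all inserts. Among the 120 with 1 spliced form it was 73 to 154 nt with a median of 93.5 nt, and 51.7% of the segments measured 70 to under 95 nt. In nascent-spliced inserts the median was 126 nt and 12.3% lay in that range, and in intermediate inserts 104 nt and 35.4%. Among all 1995 inserts with enough reads, 30.7% of single segments did so and the median was 98 nt. Inserts under 70% spliced in total RNA had a median of 90 nt. No segment of a late-spliced insert was under 70 nt, against 15.3% of all. Nascent-spliced inserts likewise had 0% and intermediate inserts 0.3% under 70 nt. Of the 287 such segments, 286 belonged to inserts under 70% spliced in total RNA. Segment length was not part of the rule, and its relation to the class is given without a test, since sequence overlap between inserts is not known. Within late-spliced inserts the segment length did not order the shares: the median total RNA share was 84.5% for 70 to under 95 nt, 90.5% for 95 to under 120 nt and 81.0% for 120 nt or more, and the median run-on share 15.9%, 19.5% and 16.3%.

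Splicing to 2 alternative forms was seen in 9 of the 129 inserts. In sequence_11027 the forms lacked 134 and 138 nt. They made up 51.3% ± 5.9 and 43.8% ± 2.2 of total RNA reads (SD, n = 4). Of run-on reads they made up 11.7% ± 4.1 and 10.4% ± 5.4 (SD, n = 2). The rule limits the sum of an insert's forms in these libraries, so a low run-on share of each form follows from it. The split of total RNA between the forms was not set by the rule, and both forms were abundant there. Outside the rule, chromatin RNA held 27.4% ± 17.7 and 17.4% ± 0.98 (SD, n = 2). In siNT RNA the shares were 59.9% ± 2.9 and 38.7% ± 2.1 (SD, n = 3). In sequence_13287 the form lacking 119 nt held 65.4% ± 16.4 of total RNA reads and the form lacking 128 nt 17.8% ± 5.8 (SD, n = 4), against 17.4% ± 6.0 and 10.4% ± 13.6 in run-on RNA (SD, n = 2). The same lengths, 119 and 128 nt, were missing in sequence_13167, whose forms held 67.8% ± 4.3 and 19.1% ± 8.0 of total RNA reads (SD, n = 4). Whether that pair shares sequence is not known here. In sequence_15814 the forms lacking 119 and 92 nt held 49.2% ± 16.2 and 37.4% ± 11.8 in total RNA (SD, n = 4).

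RNA levels of late-spliced inserts were above those of the typical insert in every fraction. Levels are log2 RNA reads per gDNA reads (prior count 2), centred on the median insert of the library, for inserts with at least 50 gDNA reads. The median level was 0.49 and 0.61 in run-on RNA, 0.66 and 0.56 in chromatin RNA, and 1.50, 1.08, 0.84 and 1.72 in total RNA libraries 1 to 4. Total RNA medians were all above the run-on and chromatin medians. The reads that the rule requires favour inserts with RNA, and the inserts that passed the same minimum but were under 70% spliced in total RNA were also above the typical insert, with mean medians of 0.27 in run-on, 0.38 in chromatin and 0.75 in total RNA. For comparison, nascent-spliced inserts had mean medians of 1.99 in run-on, 1.36 in chromatin and 3.37 in total RNA, and intermediate inserts lay between the classes with 1.02, 0.91 and 2.48. Total against run-on RNA is the contrast that chose the inserts and was not tested.

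Split by form, spliced RNA was higher and unspliced RNA lower at steady state than in run-on RNA. Unspliced RNA per gDNA had a mean median of 0.29 ± 0.15 in run-on RNA, -0.22 ± 0.09 in chromatin RNA (SD, n = 2 each) and -1.87 ± 0.53 in total RNA (SD, n = 4). Spliced RNA per gDNA had -2.57 ± 0.01, -1.04 ± 0.23 and 0.98 ± 0.50. The forms differed in opposite directions through the fractions, as the choice on the share implies for run-on and total RNA. The same held in siNT cells outside the rule, with -2.40 ± 0.32 for unspliced and 1.48 ± 0.02 for spliced RNA (SD, n = 3).

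Tested against gDNA in siNT cells, most late-spliced inserts had more RNA than their gDNA share. Of 129 inserts, 67 had at least 50 reads in each gDNA library of the fit. Of these, 54 were higher and 3 lower in siNT RNA (edgeR, adjusted p under 0.05), where 35.4% of all 9812 inserts tested were called higher and 32% lower. Their median log2 difference was 1.66, against 0.04 over all inserts. With library totals in place of TMM the median of all inserts moved to -0.76, and 38 late-spliced inserts were higher and 8 lower. On unspliced reads alone 2 were higher and 46 lower. Intermediate inserts had 184 higher of 196 and nascent-spliced inserts 62 of 63, and of inserts under 70% spliced with the same minimum of reads 449 of 889 were higher.

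The largest siNT difference was in sequence_12457, with levels of 4.43, 4.69 and 4.24 in siNT RNA and a fitted log2 difference of 4.39 ± 0.25 (adjusted p = 8.3e-11, edgeR). All its untreated total RNA levels were also high, 3.74 to 4.58, with run-on levels of 1.70 and 1.34. Second was sequence_12194, at 3.02, 4.48 and 4.05 in siNT RNA (3.79 ± 0.36, adjusted p = 6.5e-08, edgeR). At the other end, sequence_10902 had levels of -4.74, -3.02 and -1.81 (-3.22 ± 0.56, adjusted p = 7.5e-05, edgeR) and sequence_12412 -3.81, -2.13 and -2.52 (-2.88 ± 0.45, adjusted p = 2.1e-05, edgeR). Both lay below the typical insert in all siNT cultures. In untreated total RNA their levels were -1.94 to -0.01 and -1.97 to -1.39.

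In chromatin RNA fewer inserts were called against gDNA than in siNT RNA, over the whole library as among late-spliced inserts. Calls made up 4.5% of all 10616 inserts tested in chromatin RNA and 67.4% of 9812 in siNT RNA. Of 74 late-spliced inserts tested, 8 were higher and 0 lower (edgeR, adjusted p under 0.05). Among all inserts tested in chromatin RNA 3.2% were called higher and 1.3% lower. Of 209 intermediate inserts 33 were higher and 0 lower, and of 87 nascent-spliced inserts 27 and 0. Of 952 inserts under 70% spliced in total RNA, 56 were higher and 4 lower. At an unadjusted p under 0.05 there were 24 late-spliced inserts, against 2331 of all 10616. DESeq2 called 15 of the 74 higher and 3 lower, and 780 and 779 of all inserts. The edgeR count of 8 fell to 2 without screen 2 and to 4 without screen 4. Without the block on screens, which pairs RNA with its own gDNA, it was 5. The largest value was in sequence_13858, with levels of 3.33 and 4.51 in chromatin RNA (3.63 ± 0.45, adjusted p = 0.0052, edgeR). Its spliced share was 18.1% and 7.81% there, so most of this chromatin RNA was unspliced. Next was sequence_13882, with levels of 2.66 and 3.46 (2.66 ± 0.45, adjusted p = 0.012, edgeR) and spliced shares of 3.23% and 10.8%. Without screen 2 its adjusted p was 0.071 (edgeR). Among the deepest inserts sequence_12277 (1.68 ± 0.33, adjusted p = 0.019) and sequence_08526 (2.40 ± 0.50, adjusted p = 0.023, edgeR) were called higher and the others were not.

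The siRNA pool against RRP40 gave no call in late-spliced inserts, though medians were lower. The median spliced share was 89.2%, 88.3% and 90.2% in siRRP40 cultures A to C, against 92.7%, 93.1% and 94.7% in siNT cultures, and these medians did not overlap. Of 115 inserts tested, 0 passed (edgeR, adjusted p under 0.05), as did 0% of all 2097 inserts. At an unadjusted p under 0.05 there were 18, against 117 of all 2097 inserts, 37 of 345 intermediate and 11 of 220 nascent-spliced inserts. With limma 0 late-spliced inserts were called and 24 had an unadjusted p under 0.05. The median difference was -2.58 points, against -0.52 in intermediate and -0.01 in nascent-spliced inserts, whose siNT shares lay nearer to 100%. In log2 odds of splicing the classes were closer, with medians of -0.68, -0.41 and -0.23, against -0.31 over all inserts tested. In 35 of 115 late-spliced inserts all siRRP40 shares lay below all siNT shares and in 2 above, where 8.49% of all inserts tested lay below and 2.53% above. The corresponding counts were 47 of 345 in intermediate and 10 of 220 in nascent-spliced inserts.

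Levels were likewise lower in their medians. The median level was 1.28, 1.32 and 1.17 in siRRP40 cultures, against 1.63, 1.58 and 1.66 in siNT cultures, again without overlap. Of 67 inserts tested for a siRRP40 difference, 0 passed (edgeR), as did 0% of all 9812 inserts, and DESeq2 called 0 of the 67 and 58 of all inserts. At an unadjusted p under 0.05 there were 15, against 833 of all 9812 inserts, 51 of 196 intermediate and 13 of 63 nascent-spliced inserts. The fitted median was -0.22, against -0.0033 over all inserts, -0.46 in intermediate and -0.36 in nascent-spliced inserts. With library totals in place of TMM it was -0.09, against 0.12 over all inserts. In sequence_08526 the siRRP40 shares were 90.2%, 86.9% and 91.7%, against 93.2%, 93.5% and 93.6% in siNT (log2 odds -0.70 ± 0.27, adjusted p = 0.86, edgeR). In sequence_03316 they were 79.2%, 77.8% and 77.0%, against 81.4%, 87.2% and 84.1% (-0.61 ± 0.29, adjusted p = 0.91, edgeR). Both pairs of groups were apart without overlap and neither difference passed. In sequence_12277 the order was the other way, with shares of 89.3%, 88.7% and 90.9% in siRRP40, against 86.8%, 88.9% and 90.2% in siNT (0.15 ± 0.27, adjusted p = 1.0, edgeR), and the groups overlapped.

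At 14Rik late-spliced inserts were less spliced than at Pou5f1. The median share was 68.2%, 68.4% and 77.9% in 14Rik screens 1 to 3, against 92.7%, 93.1% and 94.7% in siNT cultures. The mean 14Rik share was at least 70% in 65 of 119 inserts with enough reads and under 30% in 13, of which 3 were under 10%. Of 109 inserts tested, 47 had a lower and 4 a higher share at 14Rik (edgeR, adjusted p under 0.05), where 28.4% of all 1972 inserts were called lower and 5.17% higher. In 75 of the 109 all 14Rik shares lay below all siNT shares, as in 41.1% of all inserts tested. The median difference was -22.5 points in late-spliced, -11.6 in intermediate and -7.57 in nascent-spliced inserts, whose shares lay nearer to 100%. On the scale of log2 odds of splicing the order was another, with medians of -2.89, -2.89 and -4.20 and 43.1%, 55.4% and 64.9% of inserts called lower. Shares at each locus were measured repeatably (r = 0.67 to 0.86 between 14Rik screens and 0.81 to 0.85 between siNT cultures over 116 to 125 inserts), and between the loci the mean shares gave Pearson r = -0.004 and Spearman rho = 0.10 over 109 inserts. The choice of inserts on total RNA at Pou5f1 narrows the range of their siNT shares. It also favours a lower share at 14Rik, where the rule set no limit. Of 1135 inserts under 70% spliced in total RNA at Pou5f1, 13.0% were called lower at 14Rik and 7.75% higher, with a median log2 odds of -0.59. Locus, allele, reporter, transfection and primer position, 287 nt downstream at 14Rik, differ together and cannot be told apart.

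Single inserts differed widely in the size of the gap. In sequence_08526 the 14Rik shares were 21.5%, 24.6% and 30.7%, against 93.2%, 93.5% and 93.6% in siNT (log2 odds -5.38 ± 0.40, adjusted p = 8.2e-04, edgeR). In sequence_12277 they were 66.5%, 55.5% and 73.2%, against 86.8%, 88.9% and 90.2% (-2.05 ± 0.43, adjusted p = 0.012, edgeR). The groups were far apart in both. In sequence_12085 they were 78.4%, 76.8% and 78.0%, against 87.9%, 84.5% and 83.7% (-0.75 ± 0.42, adjusted p = 0.23, edgeR), a smaller gap that did not pass. The largest fitted fall was in sequence_10952, with 0 of 448 reads (up to 0.67%), 8.40% and 28.4% at 14Rik, against 99.9%, 99.6% and 99.7% in siNT (-12.2 ± 2.5, adjusted p = 0.010, edgeR). In sequence_00797 they were 1.25%, 12.5% and 7.22%, against 95.7%, 98.3% and 100% (-10.1 ± 1.8, adjusted p = 0.0073, edgeR). These inserts were spliced in nearly all siNT reads and in few at 14Rik. No gDNA read of sequence_00797 was found in any siNT culture.

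The opposite order was called in 4 inserts, sequence_05417, sequence_12723, sequence_12777 and sequence_13769, of which all but sequence_12777 were under 30% spliced in siNT. In sequence_12723 the 14Rik shares were 78.3%, 88.7% and 82.9%, against 0.45%, 5.37% and 0.83% in siNT (log2 odds 8.70 ± 1.11, adjusted p = 0.0027, edgeR). In sequence_05417 they were 71.5%, 57.6% and 69.1%, against 0 of 278, 0 of 248 and 0 of 132 reads in siNT, which allow up to 1.08%, 1.21% and 2.27% (adjusted p = 0.0018, edgeR). It too had no gDNA read in any siNT culture. Its untreated total RNA shares at Pou5f1 were 46.6% to 91.0%. In this pair of inserts, untreated total RNA at Pou5f1 was thus also far above siNT.

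RNA levels at 14Rik were also above the typical insert. The median level was 1.60, 0.95 and 1.72 in screens 1 to 3. Of 109 inserts tested against gDNA, 54 were higher and 2 lower (edgeR, adjusted p under 0.05), where 24.4% of all 14755 inserts were called higher and 18.5% lower. Without screen 3 the count was 32, all higher. Inserts under 70% spliced in total RNA that passed the same minimum of reads came close, with 43.5% called higher, against 49.5% of late-spliced inserts, and median levels of 0.92, 0.84 and 1.04. On unspliced reads alone 9 were higher and 15 lower. The median log2 difference was 1.31, against -0.08 over all inserts, and with library totals it was 0.61 against -0.79, with 34 higher and 7 lower. Highest was sequence_12802, with levels of 4.57, 4.23 and 3.67 (4.09 ± 0.35, adjusted p = 6.0e-04, edgeR) and spliced shares of 96.4% to 99.4%. Next was sequence_12100, with 3.18, 4.37 and 4.33 (3.89 ± 0.35, adjusted p = 6.0e-04, edgeR). Lowest was sequence_06791, with 2, 2 and 4 RNA reads beside 64, 284 and 138 gDNA reads (-5.42 ± 1.32, adjusted p = 0.013, edgeR), followed by sequence_13860 (-3.67 ± 1.27, adjusted p = 0.046, edgeR). Neither call held without screen 2 or 3, where the adjusted p was 0.12 and 0.083 for sequence_06791 and 0.084 and 0.14 for sequence_13860, which also had 0.082 without the replicate block that pairs RNA with gDNA (edgeR).

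The level at 14Rik relative to gDNA was compared with that in siNT cells in 1 fit. Of 65 inserts tested, 1 was higher and 7 lower at 14Rik (edgeR, adjusted p under 0.05), where 5.91% of all 9812 inserts were called higher and 4.35% lower. The median difference was -0.50, against -0.02 over all inserts. Of 191 intermediate inserts 2 were higher and 47 lower (median -0.72), and of 67 nascent-spliced inserts 1 and 23 (-1.46). Of 881 inserts under 70% spliced in total RNA, 65 were higher and 39 lower (-0.0045). The count of late-spliced inserts rested on few libraries: it was 2, 1 and 4 without siNT culture A, B or C, 5 without 14Rik screen 2, and 2 with untreated total RNA as the Pou5f1 side. Unspliced reads alone gave 16 higher and 0 lower, and without pairing RNA to its gDNA (no replicate block) 3 were called. In sequence_13860 the levels were -6.13, -2.53 and -2.84 at 14Rik, against 0.68, 1.24 and 1.91 in siNT (-4.83 ± 1.11, adjusted p = 0.019, edgeR). In sequence_12457 they were 2.84, -0.09 and -2.29, against 4.43, 4.69 and 4.24 (-4.25 ± 0.99, adjusted p = 0.020, edgeR), and its 14Rik screens spread widely. The 1 higher insert, sequence_12765, had levels of 0.61, -2.03 and -3.18 at 14Rik, against -9.70, -7.14 and -6.03 in siNT, where it had 0, 4 and 6 RNA reads (5.55 ± 1.41, adjusted p = 0.028, edgeR). With untreated total RNA as the Pou5f1 side its difference was -0.51 (adjusted p = 0.90), and without siNT culture A, B or C or 14Rik screen 3 the adjusted p was 0.092, 0.099, 0.054 and 0.052 (edgeR). Without siNT culture A, B or C it was 0.058, 0.073 and 0.074 for sequence_13860, and 0.069, 0.069 and 0.058 for sequence_12457, which also reached 0.056 without 14Rik screen 2 (edgeR). Pairing mattered for sequence_13860, with 0.054 without the replicate block.

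In the sorted cells late-spliced inserts stood further toward the high-numbered bins than the typical insert. Reporter cells were divided into bins 1 to 6, and the sources used here do not give which end was brighter. The mean bin of an insert weights each bin's number by the insert's share of reads there. Its median was 4.34 in screen 1 and 4.08 in screen 2 for late-spliced inserts, against 5.91 and 5.88 for nascent-spliced inserts, 5.37 and 5.19 for intermediate inserts, 3.69 and 3.69 for inserts under 70% spliced in total RNA and 3.23 and 3.22 for all inserts. Differences between the classes were not tested. The mean bins of 91 late-spliced inserts read in both screens correlated with r = 0.92. They were under 2 in 5 inserts, 2 to 4 in 34 and at least 4 in 52. Over the 6 bins in order, an average of 5.80%, 8.00%, 16.5%, 22.4%, 20.3% and 27.0% of a late-spliced insert's scaled reads fell in each in screen 1, and 4.68%, 6.37%, 27.1%, 16.2%, 16.8% and 28.8% in screen 2. Nascent-spliced inserts had 74.6% and 73.7% in bin 6.

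Of 72 late-spliced inserts tested for a slope over the bins, 36 rose and 5 fell toward bin 6 (edgeR, adjusted p under 0.05), where 28.7% of all 10229 inserts were called rising and 13.2% falling. The median slope was 1.57 in log2 abundance per bin, against 0.36 over all inserts. With library totals these were 0.94 and -0.35, with 29 rising and 5 falling. In screen 1 alone 21 were called and in screen 2 alone 28. The steepest was sequence_12474 (2.68 ± 0.42, adjusted p = 3.8e-06, edgeR), with mean bins of 5.58 and 5.42, followed by sequence_12598 (2.66 ± 0.37, adjusted p = 5.7e-07, edgeR) with 5.87 and 5.94. The steepest falls were in sequence_13901 (-1.58 ± 0.37, adjusted p = 8.2e-04, edgeR), with mean bins of 1.30 and 1.20, and sequence_12412 (-1.30 ± 0.38, adjusted p = 0.0052, edgeR), with 1.21 and 1.41. In screen 1 alone the adjusted p was 0.062 for sequence_13901, and for sequence_12412 it was 0.055 in screen 1 and 0.068 in screen 2 alone (edgeR). Mean bin and siNT level were related across 59 late-spliced inserts (r = 0.43), as across 9367 inserts of the library (r = 0.50), which share the cell line and the integration site. In sequence_12085 the mean bins were low, 2.296 and 1.887, with siNT levels of 2.26, 2.43 and 2.47, and its slope did not pass (-0.34 ± 0.41, adjusted p = 0.52, edgeR).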

How the data were processed

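Counts of reads on each reference, as the authors deposited them, were used from 46 of 58 samples, and the other samples (PRO-seq, TT-seq and H3K4me3 ChIP-seq) were not analysed here. The submitters' processing notes name cutadapt 1.14 and Bowtie2 2.3.4.3. The sources used here do not give how the spliced references were made. All counts are even (0 odd), and 45.7% to 56.7% of reads had no reference. Deposited tables of ratios, shares and scores carry no insert numbers and were not used.

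RNA is the sum of unspliced and spliced counts. Levels were fitted with edgeR 4.0.16 in R 4.3.3 (quasi-likelihood, TMM, prior count 2, at least 50 reads in every gDNA library) with the screen or culture as a block. Spliced shares were fitted on spliced and unspliced counts with the library as a block (at least 20 reads in each library). Sort slopes ran over 6 bins (minimum of 100 reads per screen, and of 50 in unsorted cells). P-values were Benjamini-Hochberg adjusted over all inserts tested, with a threshold of 0.05. DESeq2 1.42.0 and limma 3.58.1 served as alternatives. Each kind of fit was tested on simulated data. The SE of a log2 value is its size over the square root of F.

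The members, lists and classes were chosen with earlier results of these data known. Named inserts are the 6 deepest members, at most 2 per direction and comparison with the largest called change, and the nearest on each side of a limit. For untreated Pou5f1 cells the labels name the RNA that each gDNA library belongs to, and for siRNA cultures and 14Rik they give RNA and gDNA the same letter or number. For these pairs of RNA and gDNA, deviations from the group means had correlations of 0.22 to 0.49 for Pou5f1 total RNA, 0.28 to 0.29 for siNT, 0.29 to 0.33 for siRRP40 and 0.04 to 0.27 for 14Rik, and chromatin with total RNA at 0.22. The highest values between unmatched libraries were 0.08, -0.14, -0.13 and 0.05 in the order from Pou5f1 total RNA to 14Rik. At 14Rik the lowest matched value was thus not above it. With 2 chromatin libraries the unmatched value, -0.22, mirrors the matched one by construction. The letters of siRRP40 and siNT RNA gave -0.01 to 0.03, so letters were not treated as pairs there. No label says that replicates came from separately made pools of cells, so p-values measure the spread between these libraries.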

Additional observations from a re-analysis of the deposited data

Results flagged for a closer look

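In total RNA at Pou5f1, sequence_12492 had a spliced share of 84.7% in library 2, against 93.5% to 94.0% in the other libraries, a gap of 0.956 of the whole range, above Dixon's critical value for 4 samples. It was the only one of 14 series of 4 values examined to pass, and chance flags about 1 in 20. Library 2 also had the lowest median share of late-spliced inserts, 82.8%.

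The difference between RNA and gDNA differed between 14Rik and the siNT cultures of Pou5f1 in 8 of 65 late-spliced inserts (edgeR, interaction of RNA with locus, adjusted p under 0.05). The named ones were sequence_12765 (5.55), sequence_13860 (-4.83) and sequence_12457 (-4.25), in log2 units. In sequence_12765 the siNT cultures held 0, 4 and 6 RNA reads, so its fitted size depends on the prior count and is no bound.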

How the results depend on the processing

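Over all results and alternatives, 68 counts stayed within 1.5 times the reported one without a turn of direction, 23 moved further and 3 turned direction. The 68 include the siRRP40 results, with 0 calls in every setting, and numbers of inserts under the rule. Neither of these has a direction. The rule gave 129 inserts, 84 where each library needed 100 reads, 49 at 80% and 20%, 278 at 60% and 40%, and 120 to 225 without 1 library of the rule, the highest without run-on library 1. On unspliced reads alone the calls turned direction: 48 for the siNT level, 24 for the 14Rik level and 16 for the locus. Most total RNA reads of these inserts were spliced, so that setting measures another quantity. Chromatin RNA had 3 calls there, 2 higher and 1 lower. In the same setting sequence_12457 had -2.41 (siNT) and sequence_12802 -1.93 (14Rik), and with untreated total RNA as the Pou5f1 side sequence_12765 had -0.51. DESeq2 called 18 for chromatin RNA and 16 for the locus, and at least 10 gDNA reads gave 17 for the locus. Without the replicate block 54 were called for siNT, 55 for 14Rik, 42 for sorting, 5 for chromatin RNA, 3 for the locus and 0 for siRRP40. Untreated total RNA as the Pou5f1 side gave 2. TMM on spliced columns gave 3 for siNT against chromatin RNA.

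Leaving out 1 replicate gave 54 to 59 calls for the siNT level, 2 to 7 for chromatin RNA, 32 to 60 for 14Rik, 1 to 12 for the locus, 30 to 81 for the share in siNT against chromatin RNA, 37 to 61 for the share at 14Rik, 21 to 28 for sorting and 0 for both siRRP40 results. Of the alternatives for single named inserts, 188 kept their call, 32 lost it and 3 turned direction. Why these values moved was not tested. Depth limits the shares: the lowest median over libraries of the rule was 216 reads, and 116 of 129 inserts had 20 reads in both chromatin libraries.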

Other observations

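In the siNT cultures 7 late-spliced inserts had no gDNA read in any of 3 libraries. Of these, sequence_00797 still had 1012, 1532 and 674 RNA reads, of which 95.7%, 98.3% and 100% were spliced, and sequence_05417 had 278, 248 and 132 RNA reads, none of them spliced. Of all 16461 inserts, 1301 had no gDNA read in siNT libraries and 77 of those had at least 100 RNA reads in each culture. In untreated total RNA screens no late-spliced insert lacked gDNA reads in all 4 libraries.

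Late-spliced inserts with at least 100 reads and no spliced read numbered 8 in chromatin library 2, 6 in chromatin library 3 and 8 in 14Rik screen 1, and none in 14Rik screens 2 and 3. Among those of screen 1, sequence_13882 had 0 spliced of 1096 reads (up to 0.27%) in screen 1, 17.1% in screen 2 and 38.1% in screen 3.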
